A study of Mus musculus with 25 samples.

Results

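Ly6a, Ly6c1, Ly6e, Pltp, Mgp, Pglyrp1 and Srarp were 7 of the 18440 genes listed in every expression table of mouse retinas injected with tunicamycin, AA147, Ceapin-A7 or vehicle. They were chosen from the measured values, for lower levels after tunicamycin than in both sets of vehicle libraries, so their tunicamycin levels are given as a description without a test. All 7 passed the filter on low values, which 13117 genes passed. The values for AA147 and Ceapin-A7 were not used to choose the genes, although both compounds are set against vehicle libraries that were.

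The 25 libraries formed 5 groups of 5 retinal samples from wild-type C57BL/6J mice, injected into the vitreous of both eyes at postnatal day 30. Each eye received 1 µL with 10 µM tunicamycin, 10 µM AA147, 10 µM Ceapin-A7, or the vehicle alone. The vehicle is labelled PBS in the sample labels, whereas the protocol describes saline with 0.05 to 0.1% DMSO. Tunicamycin blocks N-linked glycosylation and so loads the endoplasmic reticulum with unfolded protein, AA147 is a small-molecule activator of the stress sensor ATF6, and Ceapin-A7 is an inhibitor of ATF6. The vehicle libraries are called vehicle set 1, which shares the gene list of AA147, and vehicle set 2, which shares the gene list of tunicamycin and Ceapin-A7. Collection at 24 h is given for the compounds but not for the vehicle, and the series also names 3 d and 7 d, so compound and collection time cannot be told apart. The labels do not say whether the 5 samples of a group came from separate animals, so every p-value measures the spread between these samples only.

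Ly6a, Ly6c1 and Ly6e belong to the Ly6/uPAR family, small disulfide-rich proteins that are mostly held on the outer cell surface by a glycosylphosphatidylinositol (GPI) anchor. Mouse Ly6a (Sca-1) and Ly6c1 are widely used surface markers of endothelial and haematopoietic cells, and Ly6e is an interferon-inducible member found on many cell types. Pltp, Mgp and Pglyrp1 encode secreted proteins: a plasma protein that moves phospholipids between lipoproteins, a vitamin K dependent inhibitor of calcification, and a binder of bacterial peptidoglycan. Srarp has been studied mainly in human breast cells, where its product interacts with steroid receptors. In the retina, endothelial cells and pericytes of the capillaries form the blood-retina barrier.

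Depth, estimated from the steps between low values of 1421 single-transcript genes, lay between 15.2 and 25 M fragments (median 23.3 M). Hspa5, the endoplasmic reticulum chaperone that reports unfolded protein, stood at 229 to 1513 FPKM (fragments per kilobase and per M mapped fragments) in tunicamycin libraries, against 106 to 162 FPKM in vehicle set 2. Transcripts of lens fibres were present at very unequal levels, and the summed FPKM of 19 lens genes ran from 79.6 to 20144 in tunicamycin libraries and from 77.1 to 7622 in vehicle set 2. The Y-linked gene Ddx3y was under 1 FPKM in 0 tunicamycin, 2 AA147, 2 Ceapin-A7, 0 vehicle set 1 and 4 vehicle set 2 libraries.

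RefSeq promoter windows of 300 bases (250 before to 50 after the annotated start, build GRCm38.p6) matched 4 of the 7 genes, and are printed because the genes were lower together after tunicamycin. Ly6a, Ly6e and Mgp had no entry. Capitals mark the letters AGGAAG, the core bound by ETS factors such as those of endothelial cells, on either strand (CTTCCT on the printed strand for the other one). The windows lie at chr15:75048614-75048913 on the minus strand for Ly6c1, chr2:164857659-164857958 on the minus strand for Pltp, chr7:18884440-18884739 on the plus strand for Pglyrp1 and chr4:141436056-141436355 on the minus strand for Srarp.
Ly6c1: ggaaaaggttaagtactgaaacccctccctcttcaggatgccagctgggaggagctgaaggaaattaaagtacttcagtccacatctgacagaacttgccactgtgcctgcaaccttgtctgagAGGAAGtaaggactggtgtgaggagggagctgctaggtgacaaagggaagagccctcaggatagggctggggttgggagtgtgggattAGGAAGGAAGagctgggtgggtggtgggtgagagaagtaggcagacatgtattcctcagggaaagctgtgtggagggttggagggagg
Pltp: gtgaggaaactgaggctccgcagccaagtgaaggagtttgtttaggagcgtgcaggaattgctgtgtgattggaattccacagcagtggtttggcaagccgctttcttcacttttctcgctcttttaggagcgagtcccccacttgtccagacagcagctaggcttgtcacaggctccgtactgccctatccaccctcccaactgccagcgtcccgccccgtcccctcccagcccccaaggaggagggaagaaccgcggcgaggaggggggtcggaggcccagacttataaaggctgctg
Pglyrp1: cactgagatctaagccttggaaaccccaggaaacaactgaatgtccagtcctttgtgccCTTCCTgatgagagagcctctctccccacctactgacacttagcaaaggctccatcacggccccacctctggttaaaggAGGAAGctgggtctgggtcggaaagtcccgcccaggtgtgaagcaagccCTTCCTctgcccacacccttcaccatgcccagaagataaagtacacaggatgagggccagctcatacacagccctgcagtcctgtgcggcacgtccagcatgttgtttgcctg
Srarp: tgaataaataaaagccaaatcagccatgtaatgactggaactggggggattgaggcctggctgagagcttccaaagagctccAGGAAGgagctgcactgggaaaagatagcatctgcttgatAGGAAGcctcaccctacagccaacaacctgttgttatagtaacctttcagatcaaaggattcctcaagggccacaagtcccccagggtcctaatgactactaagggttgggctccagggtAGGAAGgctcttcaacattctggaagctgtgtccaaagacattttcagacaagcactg

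AGGAAG occurred 3 times in the Ly6c1 window, with first bases at -126, -38 and -34 from the start, and the last pair overlapped. The Pglyrp1 window also held 3 matches, at -191, -112 and -63, of which the first and the last lay on the opposite strand. Srarp had 3 as well, at -168, -128 and -8. The Pltp window had none, nor did another, overlapping Ly6c1 window at chr15:75048788-75049087, which is listed before the printed one. For Ly6c1 the matches thus depend on which window is read. The same letters occurred in 35.4% of 32851 RefSeq promoter windows of this length. None of the printed windows held any of the other letters searched on both strands, each named with its share of all windows. These were the endoplasmic reticulum stress element CCAAT and CCACG 9 bases apart (0.119%), the unfolded protein response element TGACGTG (2.01%), the interferon-stimulated element TTTC repeated after 2 bases (3.44%) and the gamma-activated site TTCNNNGAA (8.30%). The liver X receptor element, AGGTCA repeated after 4 bases (0.0152%), and the AP-1 site TGACTCA (5.2%) completed the search. The matches are descriptions of letters and not binding sites.

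All 7 genes were lower after tunicamycin than in either vehicle set, and for each of them the highest of the 5 tunicamycin libraries lay below the lowest of the other 20 libraries. The genes were chosen for large falls against both vehicle sets, which favours such a separation from the vehicle libraries, so it carries no test. The AA147 and Ceapin-A7 libraries among the 20 were not part of that choice, but the tunicamycin libraries set against them were. Their separation is therefore a description as well. The share of all tested genes that separate in this way was not counted. For orientation, 1141 of 13117 genes (8.7%) passed an adjusted p of 0.05 for tunicamycin against vehicle set 2 in limma, of which 368 (2.81%) were lower and 773 (5.89%) higher. With median-ratio scaling the split was 569 lower and 579 higher, and with quantile normalization 572 lower and 567 higher. In RNA from whole retina, fewer cells of a type and less RNA per cell cannot be told apart.

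**Figure D1:**
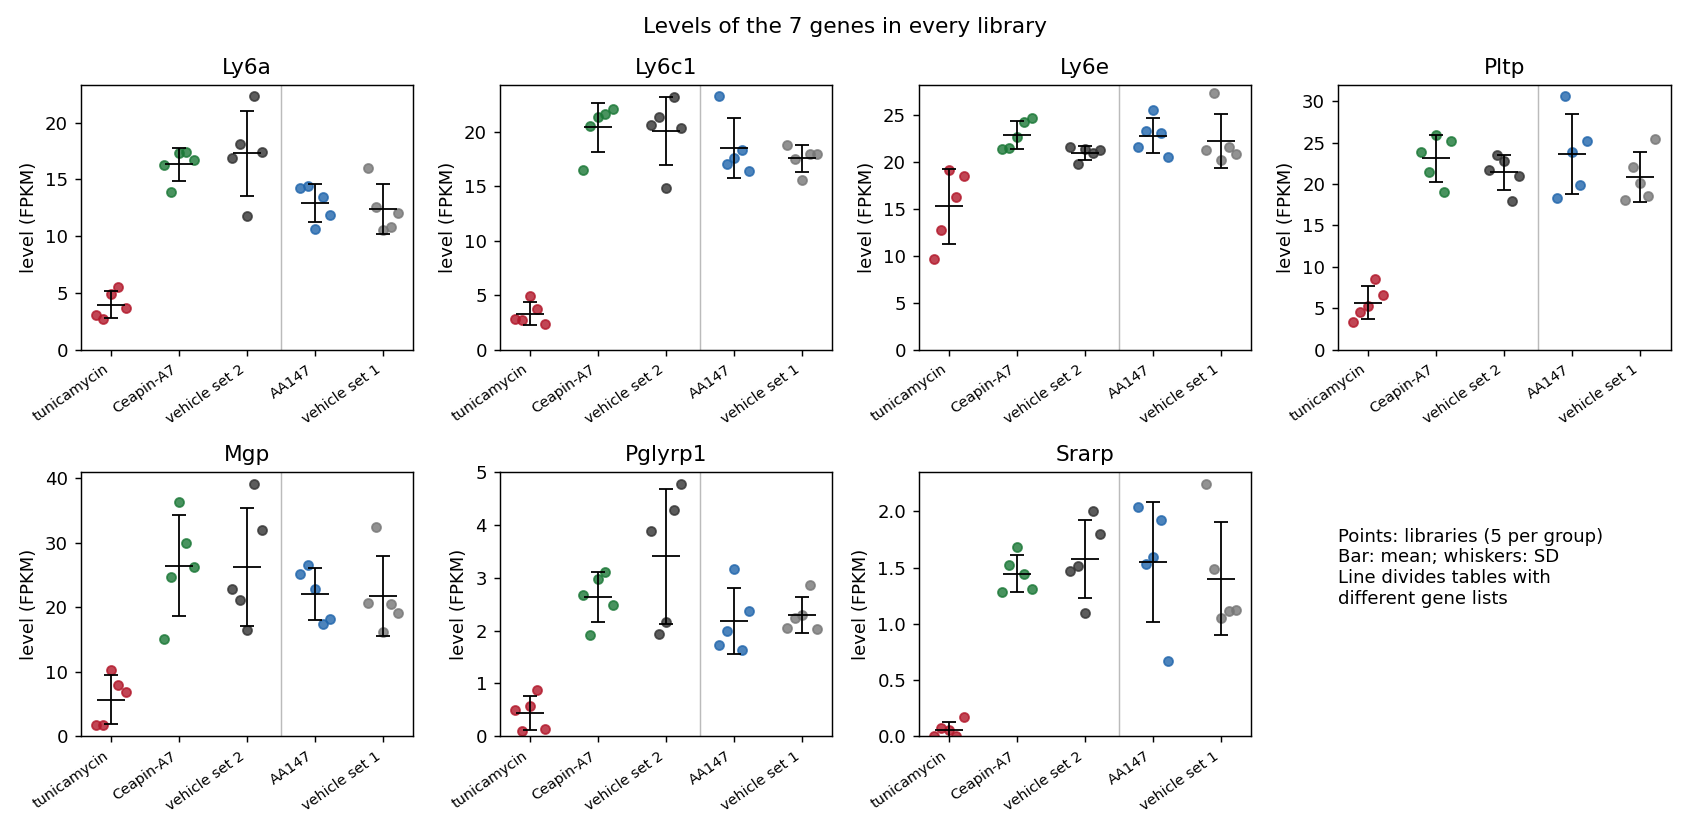
Level of each of the 7 genes in every library (FPKM; 1 panel per gene, 5 points per group, horizontal bars for group means and whiskers for the SD; a grey line divides tables with different gene lists). In each panel the 5 tunicamycin points lie below all 20 others, most narrowly for Ly6e, where 19.15 FPKM in a tunicamycin library compares with 19.72 FPKM in the lowest library of vehicle set 2.

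Ly6c1, a capillary surface protein, had the largest difference of the 3 Ly6 genes. It stood at 2.84, 2.71, 4.93, 3.69 and 2.34 FPKM in tunicamycin libraries 1 to 5, against 20.65, 21.37, 14.83, 23.19 and 20.42 FPKM in libraries 1 to 5 of vehicle set 2. The tunicamycin mean of 3.30 ± 1.04 FPKM was 16.4% of the 20.1 ± 3.14 FPKM of vehicle set 2 (SD, n = 5 each) and 18.8% of the 17.6 ± 1.23 FPKM of vehicle set 1. The difference was -2.31 against vehicle set 2 and -2.14 against vehicle set 1 on the log2(FPKM + 1) scale, which understates the change of low genes. Reads of Ly6c1 may be split with its near-identical neighbour Ly6c2, which reached at most 0.09 FPKM in tunicamycin libraries and 0.19 FPKM in vehicle set 2. The 2 genes together averaged 3.37 FPKM after tunicamycin and 20.2 FPKM in vehicle set 2, so the sum showed the same contrast.

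Ly6a, the antigen known as Sca-1, had 3.07, 2.71, 4.90, 5.52 and 3.64 FPKM in tunicamycin libraries 1 to 5, against 16.85, 18.12, 11.77, 22.34 and 17.40 FPKM in vehicle set 2. The groups did not overlap, and library 3 of vehicle set 2 was the lowest of that set for both Ly6a and Ly6c1. Its mean of 3.97 ± 1.2 FPKM after tunicamycin was 22.9% of the 17.3 ± 3.77 FPKM of vehicle set 2 and 32.0% of the 12.4 ± 2.17 FPKM of vehicle set 1 (SD, n = 5 each). The log2 difference was -1.89 against vehicle set 2 and -1.45 against vehicle set 1. Vehicle set 1 was the lower of the vehicle sets for Ly6a, so the percentage against it was the higher.

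Ly6e, the interferon-inducible member, was the exception to the description of strong fallers. Its levels were 9.64, 12.77, 19.15, 16.22 and 18.50 FPKM in tunicamycin libraries 1 to 5, against 21.59, 19.72, 21.40, 20.99 and 21.25 FPKM in vehicle set 2. Libraries 3 and 5 after tunicamycin came close to the vehicle range, while libraries 1 and 2 stood well below it. The mean of 15.3 ± 4.01 FPKM after tunicamycin was 72.7% of the 20.99 ± 0.743 FPKM of vehicle set 2 and 68.6% of the 22.2 ± 2.88 FPKM of vehicle set 1 (SD, n = 5 each). By the smaller of its log2 differences against the 2 vehicle sets, -0.47, Ly6e ranked 75 among all tested genes, between Jak3 at -0.47 and Car12 at -0.47.

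Of the 3 secreted proteins, the lipid transfer protein Pltp had 3.29, 4.55, 5.27, 8.54 and 6.64 FPKM in tunicamycin libraries 1 to 5, against 21.73, 23.52, 22.79, 17.98 and 21.02 FPKM in vehicle set 2. Its tunicamycin mean of 5.66 ± 2.02 FPKM was 26.4% of the 21.4 ± 2.14 FPKM of vehicle set 2 and 27.1% of the 20.85 ± 2.99 FPKM of vehicle set 1 (SD, n = 5 each). The log2 differences, -1.80 against vehicle set 2 and -1.76 against vehicle set 1, were the closest pair among the 7 genes.

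Mgp, the calcification inhibitor, had 1.76, 1.68, 10.34, 7.92 and 6.80 FPKM in tunicamycin libraries 1 to 5, against 22.88, 21.06, 16.40, 39.15 and 31.95 FPKM in vehicle set 2. Tunicamycin libraries 1 and 2 formed a low pair, and libraries 4 and 5 of vehicle set 2 formed a high pair. The tunicamycin mean was 5.70 ± 3.85 FPKM, 21.7% of the 26.3 ± 9.14 FPKM of vehicle set 2 and 26.1% of the 21.8 ± 6.20 FPKM of vehicle set 1 (SD, n = 5 each). On the log2 scale Mgp differed by -2.20 from vehicle set 2 and by -1.97 from vehicle set 1.

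Pglyrp1, the peptidoglycan-binding protein, was low throughout. It had 0.50, 0.10, 0.58, 0.88 and 0.13 FPKM in tunicamycin libraries 1 to 5, against 3.89, 1.94, 2.17, 4.27 and 4.77 FPKM in vehicle set 2. Tunicamycin libraries 2 and 5 lay below the other 3, and in vehicle set 2 libraries 2 and 3 lay well below libraries 1, 4 and 5. Fragments were not estimated for Pglyrp1, and its lowest tunicamycin values may rest on few of them, so their order is uncertain. Its mean of 0.438 ± 0.327 FPKM after tunicamycin was 12.9% of the 3.41 ± 1.28 FPKM of vehicle set 2 and 19.1% of the 2.29 ± 0.338 FPKM of vehicle set 1 (SD, n = 5 each). The log2 differences were -1.59 against vehicle set 2 and -1.22 against vehicle set 1.

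Srarp, the steroid receptor associated protein, was near the detection limit after tunicamycin. It stood at 0, 0.07, 0.06, 0 and 0.17 FPKM in tunicamycin libraries 1 to 5, against 1.47, 1.51, 1.10, 2.00 and 1.80 FPKM in vehicle set 2. From the estimated depth and a transcript of 905 bases, these values stand for about 0, 1, 1, 0 and 2 fragments in tunicamycin libraries, a sum of 4, against 17 to 30 fragments per library and a sum of 118 in vehicle set 2. A count of 0 allows up to 3 fragments, or 0.191 to 0.261 FPKM in these tunicamycin libraries, which covers counting error only, and every one of them lay under that limit. The tunicamycin mean of 0.060 ± 0.070 FPKM was 3.81% of the 1.58 ± 0.344 FPKM of vehicle set 2 and 4.28% of the 1.4 ± 0.50 FPKM of vehicle set 1 (SD, n = 5 each), the lowest such percentages of the 7 genes. The log2 differences of -1.27 and -1.16 are small beside those percentages because of the added pseudocount of 1.

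Ranked by the smaller log2 difference against the 2 vehicle sets, 6 of the 7 genes lay among the first 10 of all tested genes, with Ly6c1 at 2, Mgp at 3, Pltp at 4, Ly6a at 6, Pglyrp1 at 9 and Srarp at 10. The other 4 of the first 10 were Ttr, Rgs5, Cldn5 and Rgr. Just below Srarp at -1.16 came Higd1b at -1.15. The 7 genes were chosen for falls against the same 2 vehicle sets, so their high ranks restate that choice. Ddx3y was over 1 FPKM in all 5 tunicamycin libraries but only in library 5 of vehicle set 2. In that library Ly6a, Ly6c1, Ly6e, Pltp, Mgp and Srarp lay within the range of the other 4, and Pglyrp1 was the highest at 4.77 FPKM. These values rest on 1 library. Vehicle set 1, like tunicamycin, held 0 libraries with Ddx3y under 1 FPKM. The tunicamycin differences against it ran from -2.14 for Ly6c1 to -0.55 for Ly6e, across different gene lists. With Ddx3y as a covariate, none of the 7 differences against vehicle set 2 moved by as much as the gene's mean within-group SD in log2. How much of the differences goes with Ddx3y was not tested further.

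The tunicamycin libraries did not order the 7 genes alike. As a share of the mean of vehicle set 2, Ly6e stood at 45.9%, 60.8%, 91.2%, 77.3% and 88.1% in tunicamycin libraries 1 to 5, and Mgp at 6.70%, 6.39%, 39.3%, 30.1% and 25.9%. Both were lowest in libraries 1 and 2 and highest in library 3. Library 1 also had the highest Hspa5, 1513 FPKM, and library 3 the lowest, 229 FPKM. Libraries 2, 4 and 5 had 495, 581 and 427 FPKM of Hspa5. From high to low Hspa5 the libraries thus did not follow the rising order of Ly6e or of Mgp. The lens crystallin Cryaa was at 6234 FPKM in library 1 and 0.97 FPKM in library 3, and the part of lens RNA in the order of Ly6e and Mgp was not tested. Ly6c1 instead was lowest in library 5, at 11.6%, and Pltp was highest in library 4, at 39.9%.

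**Figure D2:**
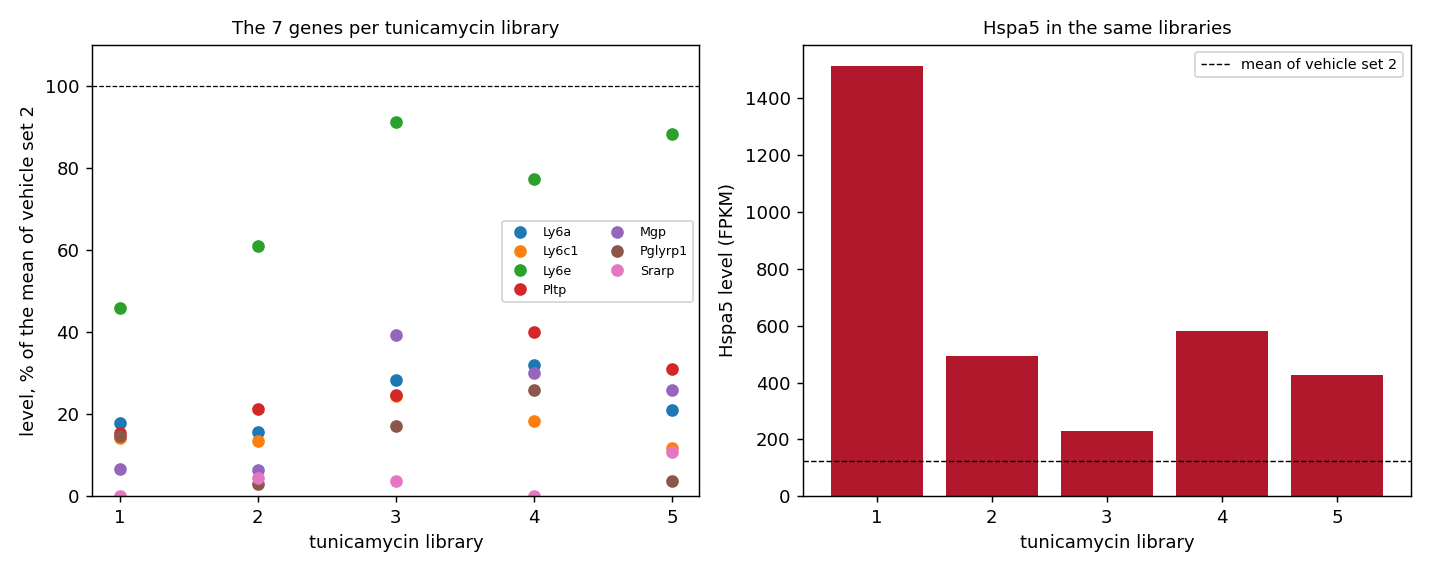
Left, each gene's level in tunicamycin libraries 1 to 5 as a percentage of the mean of vehicle set 2 (dashed line at 100%); right, the Hspa5 level (FPKM) in the same libraries, with the mean of vehicle set 2 as a dashed line. Ly6e runs from 45.9% in library 1 to 91.2% in library 3, and Hspa5 from 1513 FPKM in library 1 to 229 FPKM in library 3. Between these ends, library 2 lies below library 4 for both genes.

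Without compound, the genes formed 2 tiers. FPKM is a level per length, so the order compares genes on a common scale. In vehicle set 2 the order of mean levels was Mgp, Pltp, Ly6e, Ly6c1 and Ly6a, from 26.3 ± 9.14 to 17.3 ± 3.77 FPKM, and the mean ± SD of each overlapped that of its neighbours. In vehicle set 1 it was Ly6e, Mgp, Pltp, Ly6c1 and Ly6a, where, of these 5, only Ly6a, at 12.4 ± 2.17 FPKM, stood apart from its neighbour Ly6c1, at 17.6 ± 1.23 FPKM. Pglyrp1 and Srarp were far below in both. After tunicamycin Ly6e stood apart at the top with 15.3 ± 4.01 FPKM, and Mgp, Pltp, Ly6a and Ly6c1 followed between 5.70 and 3.30 FPKM with overlapping mean ± SD between neighbours.

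The ATF6 activator AA147 left the 7 genes near their vehicle levels in this measurement. In limma 0 of 7 passed an adjusted p of 0.05, as did 0 of 13117 genes (0%), and 0 of the 7 had an unadjusted p under 0.05, against 246 of all genes. Ly6a had 14.22, 14.41, 10.61, 13.47 and 11.83 FPKM in AA147 libraries 1 to 5, against 15.96, 12.52, 10.53, 10.83 and 12.07 FPKM in vehicle set 1, and the groups overlapped. Ly6c1 had 23.29, 17.04, 17.58, 18.40 and 16.45 FPKM with AA147, against 18.83, 17.54, 15.56, 18.03 and 18.01 FPKM in vehicle set 1. Apart from AA147 library 1, all Ly6c1 values of both groups lay within 15.56 to 18.83 FPKM.

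The AA147 differences in log2 were 0.06 ± 0.15 for Ly6a, 0.06 ± 0.13 for Ly6c1 and 0.04 ± 0.12 for Ly6e (SE, n = 5 each, limma). Pltp differed by 0.16 ± 0.16, with a mean of 23.6 ± 4.82 FPKM after AA147 and 20.85 ± 2.99 FPKM in vehicle set 1. Mgp differed by 0.03 ± 0.33, Pglyrp1 by -0.06 ± 0.18 and Srarp by 0.08 ± 0.14. Every adjusted p in limma was 0.9998. The differences were above 0 for 6 of the 7 genes and below it for Pglyrp1, and none exceeded its SE by more than rounding.

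The 95% intervals say how much could have been missed. For Ly6c1 the interval with AA147 ran from -0.20 to 0.33 and for Ly6a from -0.24 to 0.37. The interval of Pltp ran from -0.17 to 0.49 and that of Ly6e from -0.21 to 0.28. For Mgp the interval ran from -0.65 to 0.72. All intervals here and below use a spread shared by the 5 groups, tunicamycin included. For Mgp the SD in log2 was 0.99 after tunicamycin, against 0.26 with AA147 and 0.36 in vehicle set 1. That of Pglyrp1 ran from -0.43 to 0.30 and that of Srarp from -0.20 to 0.36. The lower bounds are given beside the tunicamycin differences against the same vehicle set, -2.14 for Ly6c1, -1.97 for Mgp and -0.55 for Ly6e, without a test between compounds, since the tables of tunicamycin and vehicle set 1 have different gene lists.

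With the ATF6 inhibitor Ceapin-A7, 0 of the 7 genes passed an adjusted p of 0.05 in limma against vehicle set 2, as did 0 of 13117 genes (0%), and 0 of the 7 had an unadjusted p under 0.05, against 1615 of all genes. Ly6e was at 21.37, 21.45, 22.65, 24.24 and 24.65 FPKM in Ceapin-A7 libraries 1 to 5, against 21.59, 19.72, 21.40, 20.99 and 21.25 FPKM in vehicle set 2. Of the Ceapin-A7 libraries, 3 of 5 lay above the highest library of vehicle set 2, and the log2 difference was 0.12 ± 0.12 (SE, limma, adjusted p = 0.719). That SE shares its spread with the tunicamycin libraries, where the SD of Ly6e in log2 was 0.39. It was 0.09 with Ceapin-A7 and 0.05 in vehicle set 2. An exact two-sided permutation test of the same values gave p = 0.0476, and 0.667 after Benjamini-Hochberg adjustment over the 14 comparisons of a gene with AA147 or Ceapin-A7, where 5 against 5 libraries allow no p below 0.00794. The result therefore did not pass the correction.

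Pglyrp1 had the largest Ceapin-A7 difference of the 7 genes. It was at 2.68, 1.91, 2.97, 3.10 and 2.48 FPKM in Ceapin-A7 libraries 1 to 5, against 3.89, 1.94, 2.17, 4.27 and 4.77 FPKM in vehicle set 2. The groups overlapped, and the difference was -0.24 ± 0.18 in log2 (SE, limma, adjusted p = 0.598; 95% interval -0.60 to 0.13). Pltp differed by 0.10 ± 0.16 (interval -0.22 to 0.43), Ly6a by -0.06 ± 0.15 (-0.36 to 0.25) and Ly6c1 by 0.03 ± 0.13 (-0.23 to 0.30). Mgp ran from 15.08 to 36.30 FPKM with Ceapin-A7 and from 16.40 to 39.15 FPKM in vehicle set 2, and differed by 0.02 ± 0.33 (-0.66 to 0.71). Srarp averaged 1.45 ± 0.163 FPKM with Ceapin-A7 and 1.58 ± 0.344 FPKM in vehicle set 2, a difference of -0.07 ± 0.14 (-0.35 to 0.21).

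AA147 and Ceapin-A7 act on ATF6 in opposite directions, and the difference between their effects, each against its own vehicle set, was tested as an interaction in the same limma fit. In that test 0 of the 7 genes passed, as did 0 of 13117 (0%), and 0 of the 7 had an unadjusted p under 0.05, against 882 of all genes. The differences ran from -0.08 ± 0.17 for Ly6e to 0.17 ± 0.25 for Pglyrp1, with adjusted p in limma from 0.891 to 0.997. Their 95% intervals all held 0, and the widest, for Mgp, ran from -0.96 to 0.98. The other intervals ran from -0.31 to 0.55 for Ly6a, -0.34 to 0.41 for Ly6c1, -0.43 to 0.27 for Ly6e, -0.41 to 0.52 for Pltp, -0.34 to 0.69 for Pglyrp1 and -0.25 to 0.54 for Srarp. A p above the threshold does not show that the compounds act alike on these genes.

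**Figure D3:**
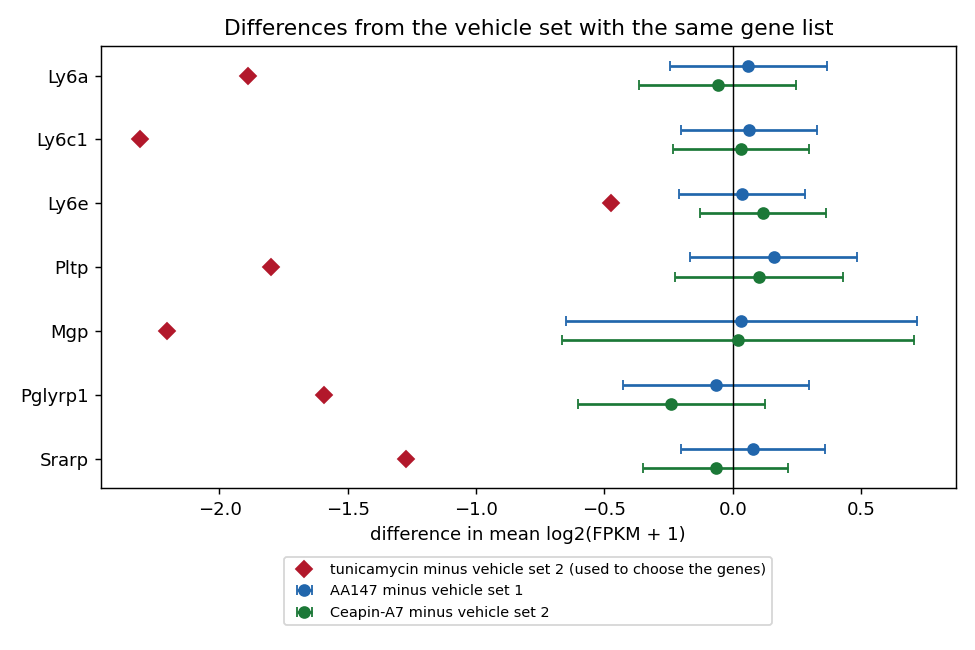
Differences in log2(FPKM + 1) of the 7 genes for each compound against the vehicle set with the same gene list, with 95% intervals for AA147 and Ceapin-A7 and points without intervals for tunicamycin, whose values chose the genes. AA147 and Ceapin-A7 lie between -0.24 and 0.16 with intervals that hold 0, and tunicamycin lies between -2.31 for Ly6c1 and -0.47 for Ly6e.

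Genes related to the 7 by family or role were counted for tunicamycin against vehicle set 2, leaving the 7 themselves out. All lists were drawn up with earlier results of these data known. Of 30 other Ly6/uPAR genes in the tables, 16 averaged under 0.1 FPKM and 6 were tested, of which 0 passed in limma and 2 had an unadjusted p under 0.05. Their median log2 difference was -0.17, against 0.01 over all tested genes, and with 1 library left out up to 2 of them passed as lower. Lynx1, a neuronal member that acts on nicotinic receptors, was the highest expressed of them at 69.0 ± 12.2 FPKM after tunicamycin and 77.3 ± 6.04 FPKM in vehicle set 2, a difference of -0.18 ± 0.08 (SE, limma, adjusted p = 0.197). Between Ly6e and Ly6c1 in the RefSeq gene order lie Ly6i and Ly6a, and Ly6i averaged 0.0488 FPKM.

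Among 33 other tested GPI-anchored surface proteins, 4 fell and 0 rose, with a median of -0.06. Mdga1, a synaptic adhesion protein, fell by 0.56 ± 0.10 in log2, the glypican Gpc3 fell by 0.41 ± 0.11 and the GDNF co-receptor Gfra1 fell by 0.32 ± 0.09 (SE), with adjusted p in limma of 0.00165, 0.0250 and 0.0226. The call of Gpc3 was lost in 6 of 39 alternative settings and that of Gfra1 in 7. Of 28 genes that build or attach the GPI anchor, 0 fell and 1 rose, with a median of 0.01. This was Piga, part of the enzyme of the first step, at 6.16 ± 1.93 FPKM after tunicamycin and 3.87 ± 0.192 FPKM in vehicle set 2 (log2 difference 0.52 ± 0.10, limma adjusted p = 0.00248).

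Of 20 targets of the liver X receptors and lipid transfer genes, the group of Pltp, 4 fell and 0 rose (median -0.08). They included the fatty acid desaturase Scd1 and the lipocalin Apod, which fell by 0.49 ± 0.12 and 0.49 ± 0.14 (SE). Their adjusted p in limma were 0.0112 and 0.0291. Of 15 vitamin K dependent or calcification genes, the group of Mgp, 0 fell and 1 rose (median 0.07). Vkorc1, which recycles vitamin K, was at 20.6 ± 2.21 FPKM after tunicamycin and 16.1 ± 1.77 FPKM in vehicle set 2 (log2 difference 0.34 ± 0.08, limma adjusted p = 0.00873). Apod lost its call in 8 of its 38 alternatives, and Vkorc1 and Scd1 in 3 of 39 each.

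Of 6 tested genes for peptidoglycan and bacterial sensing, the group of Pglyrp1, 0 passed in limma in either direction, and 0 at an unadjusted p under 0.05 (median -0.08), and its relatives Pglyrp2, Pglyrp3 and Pglyrp4 averaged under 0.1 FPKM. Lcn2, an iron-trapping acute phase protein, was the highest expressed of them, at 25.9 ± 14.1 FPKM after tunicamycin and 31.8 ± 24.5 FPKM in vehicle set 2. Of 11 steroid receptors and steroid-responsive genes, the group of Srarp, 1 fell and 0 rose (median -0.01). This was the kinase Sgk1, which fell by 0.36 ± 0.11 (SE, limma, adjusted p = 0.0338), a call lost in 11 alternatives and turned to 0.16 when only libraries with Ddx3y over 1 FPKM were compared.

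Markers of the vessel wall were counted in the same way, on lists also drawn up with earlier results known. Ttr, Cldn5, Rgs5 and Rgr, on the lists counted here and below, stood among the largest falls ranked above. The counts and their p-values are therefore a description and not independent support. Of 25 tested markers of brain and retina capillary endothelium, 12 fell and 2 rose after tunicamycin (median -0.27, against 0.01 over all tested genes). Cldn5, the tight junction protein of the barrier, fell by 1.32 ± 0.12 and the organic anion carrier Slco1c1 by 1.21 ± 0.10 (SE, limma, adjusted p = 8.54e-08 and 2.04e-08). Ttr, which the list of pigment epithelium genes also holds, fell by 3.02 ± 0.41 (limma, adjusted p = 5.11e-05). Over the 39 alternatives the number of capillary markers that fell ran from 9 to 12. Their summed level was 397 to 577 FPKM in tunicamycin libraries and 565 to 598 FPKM in vehicle set 2, with means of 474 and 583 FPKM. Ttr alone averaged 14.8 ± 7.65 FPKM after tunicamycin and 119 ± 34.1 FPKM in vehicle set 2. It thus made up most of the difference between the mean sums.

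Of 21 pan-endothelial genes, 9 fell and 5 rose (median -0.29), so the list did not move as one. Ramp2, a co-receptor of the adrenomedullin receptor, fell by 1.15 ± 0.11, whereas the guidance receptor Robo4 rose by 1.06 ± 0.08 and the secreted endothelial factor Egfl7 by 0.76 ± 0.08 (SE, limma, adjusted p = 2.61e-07, 3.53e-09 and 2.24e-06). The summed level of the 22 listed genes was 101 to 142 FPKM in tunicamycin libraries, against 126 to 156 FPKM in vehicle set 2. Relative to that sum, Ly6c1 was 2.70 ± 0.664% in tunicamycin libraries and 14.7 ± 1.79% in vehicle set 2 (SD, n = 5 each). The ratio after tunicamycin was 18.3% of that in vehicle set 2 for Ly6c1, 25.4% for Ly6a, 28.6% for Pltp, 23.4% for Mgp, 14.1% for Pglyrp1, 4.30% for Srarp and 80.1% for Ly6e. These ratios rest on the same tunicamycin values that chose the genes and on a sum whose members went both ways, so they are a description only.

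Of 12 pericyte and smooth muscle genes, 5 fell and 0 rose (median -0.50). Rgs5, the main pericyte marker, fell by 1.57 ± 0.08, Higd1b by 1.15 ± 0.18 and the receptor Notch3 by 0.75 ± 0.08 (SE, limma, adjusted p = 1.03e-11, 0.000377 and 6.55e-07). Their summed level was 307 to 432 FPKM in tunicamycin libraries and 334 to 480 FPKM in vehicle set 2. One gene, Vtn, named after its values were seen, made up most of that sum, with 364.9 ± 49.6 FPKM after tunicamycin and 372 ± 71.9 FPKM in vehicle set 2, whereas Rgs5 averaged 5.30 ± 0.873 FPKM after tunicamycin and 17.6 ± 2.02 FPKM in vehicle set 2. Of 12 pigment epithelium genes 6 fell (median -0.41), with sums of 97.5 to 286 FPKM after tunicamycin and 266 to 416 FPKM in vehicle set 2. That count was 1 with Ddx3y as a covariate and 0 among libraries with Ddx3y over 1 FPKM. The visual cycle isomerase Rpe65 fell by 1.78 ± 0.40 and the opsin Rgr by 1.73 ± 0.44 in the fit over all libraries (SE, limma, adjusted p = 0.00749 and 0.0151). The part of vessel wall and pigment epithelium content in the levels of the 7 genes was not tested.

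Other cell types that carry Ly6 proteins gave little signal. Of 16 neutrophil and monocyte markers in the tables, 8, with Ly6g and Ly6c2 among them, averaged under 0.1 FPKM, and of the 2 tested 0 passed in limma, with 0 at an unadjusted p under 0.05. Their summed level was 12.1 to 13.7 FPKM in tunicamycin libraries and 8.54 to 15.1 FPKM in vehicle set 2. Of 15 microglia genes, 11 fibroblast genes and 25 interferon-responsive genes, the class that holds Ly6e, 0 passed in limma in either direction, and 0, 0 and 1 had an unadjusted p under 0.05, with medians of -0.05, 0.09 and -0.12. All 18 tested targets of ATF6 and endoplasmic reticulum chaperones rose (median 1.31), led by Derl3 at 3.59 ± 0.35 (SE, limma, adjusted p = 3.39e-07). Of the 302 tested genes on any list, 0 passed in limma for AA147 and 0 for Ceapin-A7, where 4 and 41 had an unadjusted p under 0.05.

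Many of these counts rest on the spread shared by all 25 libraries. In a fit of tunicamycin and vehicle set 2 alone, 86 genes passed instead of 1141. Capillary markers that fell then numbered 10, pan-endothelial genes 6, with 4 that rose, and pericyte genes 5. Only 4 ATF6 targets and 2 pigment epithelium genes passed in that fit, with 1 lipid gene and 0 other GPI-anchored proteins. Among libraries with Ddx3y over 1 FPKM, 2 ATF6 targets and 0 lipid genes passed, and capillary markers that fell numbered 9.

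**Figure D4:**
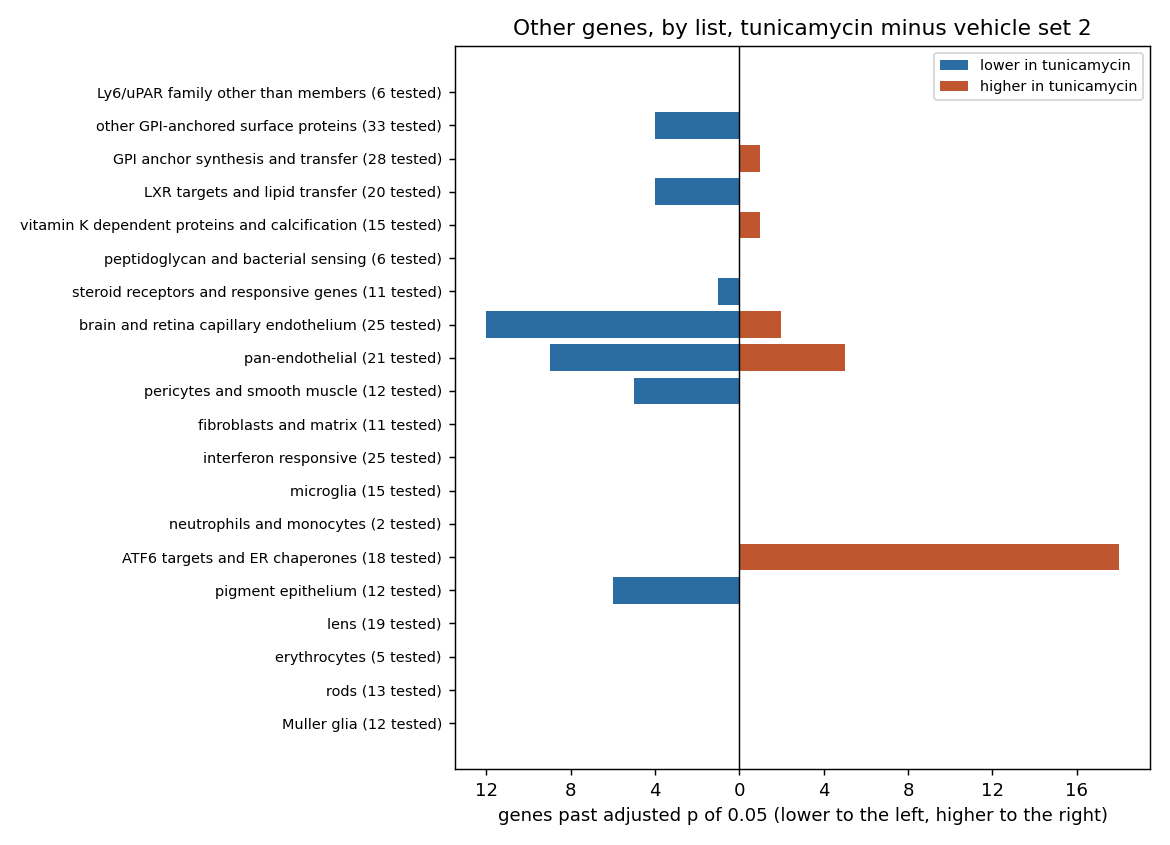
Number of tested genes of each list that passed an adjusted p of 0.05 as lower (bars to the left) or higher (bars to the right) for tunicamycin against vehicle set 2, the 7 genes left out. Capillary endothelium, with 12 lower and 2 higher of 25, and pericytes, with 5 lower of 12, lie mostly to the left, and ATF6 targets, with 18 of 18 higher, to the right.

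Within groups, the 7 genes varied together only in part. Over the 25 libraries, after subtraction of each group's mean, Pearson's r was 0.70 between Ly6a and Ly6c1 (Spearman's rho 0.77), and 0.68 without the tunicamycin libraries. Between Ly6e and Mgp it was 0.77 (rho 0.72), and 0.50 without them. Ly6c1 and Mgp had r = 0.62 (rho 0.58). Pltp had r = -0.28 to Srarp, -0.13 to Ly6c1, 0.04 to Pglyrp1, 0.21 to Ly6a, 0.38 to Mgp and 0.50 to Ly6e. Without the tunicamycin libraries its values to Mgp and Ly6e were -0.10 and 0.07. The 21 pairs ran from -0.28 to 0.77, and since the values of a pair share a library, its depth and its lens RNA, they are descriptions without a test.

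Among 12769 tested genes averaging at least 1 FPKM, those whose deviations were most like each of the 7 were read off in the same way. Ly6a was most like G3bp1 (r = 0.83) and the endothelial receptor Cd93 (0.80). Ly6c1 was most like Grik2 (0.78) and Tmem159 (0.75), and Ly6e most like Gfra1 (0.92) and Parva (0.89). For Mgp they were the vessel and progenitor antigen Cd34 (0.88) and 1810037I17Rik (0.86), and for Pltp they were Cltrn (0.79) and 4930522L14Rik (0.76). Pglyrp1 went with Csnk1d (0.79) and Reep1 (0.78), and Srarp with LOC118568339 (0.80) and Tnfrsf1a (0.75). The 99th percentile of r over all genes ran from 0.54 for Srarp to 0.77 for Ly6e, so high values of Ly6e were the more common. The tunicamycin libraries are included, and the SD of Ly6e in log2 was 0.39 there, against 0.05 to 0.17 in the other groups. These r were not computed without the tunicamycin libraries.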

How the data were processed

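Stranded mRNA libraries from retina were sequenced on a DNBSEQ instrument, per the labels' protocols. The deposited values are FPKM per gene, made by the authors. Per the submitters' processing notes the tools were HISAT2 2.0.4, RSEM 1.2.18 and DESeq2 1.4.5 with GRCm39. The 5 tables hold 18676 genes (AA147, vehicle set 1) or 19102 genes (tunicamycin, Ceapin-A7, vehicle set 2); 18440 are in both, and 236 and 662 were left out. Whole reads could not be recovered, since low values lay 0.134 to 0.166 from whole steps on average, so no count test was run. No 2 libraries were identical.

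From the deposited FPKM, log2(FPKM + 1) was computed here for 13117 genes (a minimum of 1 FPKM in 5 or more libraries). One limma fit (version 3.58.1, R 4.3.3, trend) covered all 5 groups, with Benjamini-Hochberg adjustment over all tested genes and a threshold of 0.05; it was tested on simulated data. Each compound was set against the vehicle set with the same gene list. The difference between AA147 and Ceapin-A7 is an interaction in that fit. Tables with different gene lists were not compared in the main tests. Exact permutation tests used the 5 libraries of each group. FPKM steps gave depth estimates, assuming that 250 bases of a transcript start no fragment. Python 3.11.15 drew the figures.

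The 7 genes and all gene lists were chosen with earlier results of these data known. Besides the 7, the text names up to 3 genes per list with the largest change among those past the threshold, or its highest expressed gene where none passed, the 2 genes most like each of the 7, and Hspa5, Cryaa and Ddx3y. One gene that this rule selects is not reported here. The lists of lens, erythrocyte, rod and Müller glia genes had 0 genes past the threshold for tunicamycin in limma (0, 0, 1 and 1 at an unadjusted p under 0.05), with medians of 1.33, 0.30, -0.06 and -0.12. Alternatives changed the pseudocount, filter, scaling, libraries, vehicle set, block and covariates.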

Additional observations from a re-analysis of the deposited data

Results flagged for a closer look

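Of 35 combinations of gene and group, 4 held a library far from the other 4, and chance alone gives about 1 in 20. Ly6c1 in AA147 library 1 was the highest of its group at 23.29 FPKM, with the next at 18.40 FPKM. Ly6c1 in Ceapin-A7 library 1 was the lowest of its group at 16.55 FPKM, with the next at 20.55 FPKM. Ly6e in library 2 of vehicle set 1 was the highest at 27.31 FPKM, above 21.62 FPKM. Mgp was also highest in that library, at 32.44 FPKM, above 20.69 FPKM. None of the tunicamycin groups of the 7 genes held such a library.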

How the results depend on the processing

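For AA147, Ceapin-A7 and their difference, 813 of 816 values of the 7 genes kept their direction or stayed on their side of the threshold, and within tables of the same gene list the smallest adjusted p in limma was 0.153 over 774 values. The other 3 came with the other vehicle set, which crosses gene lists. Ly6a then differed by -0.38 with AA147 and by 0.38 with Ceapin-A7, and Pglyrp1 by -0.44 with AA147 (limma, adjusted p = 0.0401, 0.0347 and 0.0448), so 2 of the 7 genes passed for AA147 and 1 for Ceapin-A7. Genes passing then numbered 6016 for AA147, 6676 for Ceapin-A7 and 7381 for tunicamycin, and with both vehicle sets 2948, 4384 and 5743; the tunicamycin difference of Ly6a was -1.45. The cause was not tested. With a pseudocount of 0.1 the tunicamycin differences were -2.60 for Ly6c1, -2.88 for Pglyrp1 and -3.47 for Srarp, and with 0.5 they were -2.06 for Pglyrp1 and -1.88 for Srarp, since a smaller pseudocount shrinks low values less. With the compared groups only, 86 genes passed for tunicamycin. With Ddx3y as a covariate 430 passed for tunicamycin and 1 for AA147. Among libraries with Ddx3y over 1 FPKM, chosen after seeing the data and with 1 library left in vehicle set 2, assumed to vary like the others, 546 genes passed for tunicamycin, 514 for Ceapin-A7 and 264 for the difference, Pglyrp1 differed by -2.04 after tunicamycin, and Sgk1 by 0.16. Leaving out 1 library gave 611 (without tunicamycin library 1) to 1985 genes (without tunicamycin library 3) for tunicamycin, 0 to 1 for AA147 (1 without AA147 library 5), 0 to 14 for Ceapin-A7 and 0 to 1 for the difference. The 14 and the 1 came without library 2 of vehicle set 2; 5, 2 and 1 genes passed for Ceapin-A7 without library 3 of vehicle set 2, Ceapin-A7 library 5 and library 2 of vehicle set 1. Leaving out 1 library, the tunicamycin differences ran from -2.43 to -2.23 for Ly6c1, -2.45 to -1.93 for Mgp and -0.56 to -0.33 for Ly6e, and 0 of the 7 genes passed for AA147, Ceapin-A7 or their difference. Libraries with the same number did not deviate together (r from -0.43 to 0.47), so the numbers do not pair them; with the replicate number as a block 1115 genes passed for tunicamycin and 0 for AA147, Ceapin-A7 and their difference. Srarp after tunicamycin rests on 4 estimated fragments, and depth sets its limit.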

Other observations

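The interferon-responsive genes, the class that holds Ly6e, were also read for the other compounds. With AA147 all 25 listed genes other than Ly6e lay above vehicle set 1, with a median log2 difference of 0.19 against 0.01 over all tested genes, and 0 of them passed an adjusted p of 0.05 in limma, with 2 at an unadjusted p under 0.05. With Ceapin-A7 12 of the 25 lay below vehicle set 2, and the median was 0.02. With tunicamycin 22 of the 25 lay below vehicle set 2, and the median was -0.12. Genes of this class share regulators and are not independent, and no test of the list was run.

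The lens genes, all 19 tested, had a median log2 difference of 1.33 for tunicamycin and 0.79 for Ceapin-A7 against vehicle set 2, and of -1.05 for AA147 against vehicle set 1. In each of these comparisons 0 of them passed in limma, with 0 at an unadjusted p under 0.05, and their summed level ran from 71.4 to 1976 FPKM with AA147, from 212 to 12584 FPKM with Ceapin-A7 and from 258 to 2518 FPKM in vehicle set 1.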
